A study of Rattus norvegicus with 6 samples.

Results

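Pax2, Pax8, Lhx1, Gata3, Tfcp2l1, Emx1, Irx3 and Tfap2b are transcription factor genes that build the nephron and its duct in the embryo and stay active in parts of the adult tubule. They were followed here in rat renal cortex after exposure to tricresyl phosphate, a flame retardant and plasticiser of the organophosphate class. A gene entered through probes whose accession, as the scanner files give it, belongs to the gene in RefSeq. Of the 8 genes, 6 had a probe and all 6 were measured above background, among 31637 genes, unnamed transcripts or unnamed probes tested, 12432 of them with a symbol. No probe accession led to Emx1 or Irx3, and these 2 genes were not analysed here.

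The animals were 6 male Sprague-Dawley (Crl:CD(SD)) rats, bought at 5 weeks of age and kept on a basal diet. Each group held 3 rats, and each rat gave 1 one-colour Agilent array. The control group received the vehicle corn oil for 4 weeks, and the treated group was given 200 mg/kg/day of tricresyl phosphate over the same time. The labels name no isomer and no route. All RNA came from dissected cortex, a mixture of many cell types, so fewer cells of a type and less RNA per cell cannot be told apart.

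Pax2 and Pax8 are paired box factors that act together to specify the nephric lineage, and Lhx1, a LIM homeodomain factor, is needed for the nephric duct and for the first epithelial vesicle of each nephron. Gata3 is a zinc finger factor of the nephric duct and of its descendants, the ureteric bud and collecting duct. Tfcp2l1 belongs to the CP2 family and patterns the principal and intercalated cells of the collecting duct, while Tfap2b, of the AP-2 family, serves the distal convoluted tubule.

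Levels below are log2 processed signals from which the log2 of the array's own 75th percentile was subtracted, so a level of 0 is that percentile. Levels of different probes depend on the probe and are not set against each other. Differences are tricresyl phosphate minus corn oil on the log2 scale, with the standard error (SE) of limma. The median processed signal per array lay between 102.6 and 133.2 over a background of 33 to 41, and 41503 to 43823 probes per array were well above background. Corn oil replicate 1 was alone on its slide and scan, and the other 5 arrays shared a slide. Genes of the nephron segments were read as Slc34a1 and Lrp2 of the proximal tubule, Nphs1 of the podocyte and Umod of the thick ascending limb. Slc12a3 of the distal convoluted tubule and Aqp2 of the collecting duct were added to them. All 6 of these genes were well above background on every array. Their detection does not show that medulla was absent, and 9 of 10 renal medulla markers were measured as well.

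Of the 6 measured genes, the promoters of Lhx1 and Tfcp2l1 are shown. The reason is that the RefSeq window starts at the outer edge of the gene there, so the letters lie outside the transcript. They are the 250 bases before the start on build GRCr8, Lhx1 on the minus strand of chr10:69901077-69901326 and Tfcp2l1 on the plus strand of chr13:32286393-32286642, and capitals mark the motif matches.
Lhx1: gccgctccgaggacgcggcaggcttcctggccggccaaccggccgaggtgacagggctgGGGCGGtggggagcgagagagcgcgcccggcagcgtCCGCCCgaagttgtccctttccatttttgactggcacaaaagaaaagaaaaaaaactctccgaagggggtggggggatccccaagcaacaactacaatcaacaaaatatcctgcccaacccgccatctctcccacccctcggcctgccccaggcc
Tfcp2l1: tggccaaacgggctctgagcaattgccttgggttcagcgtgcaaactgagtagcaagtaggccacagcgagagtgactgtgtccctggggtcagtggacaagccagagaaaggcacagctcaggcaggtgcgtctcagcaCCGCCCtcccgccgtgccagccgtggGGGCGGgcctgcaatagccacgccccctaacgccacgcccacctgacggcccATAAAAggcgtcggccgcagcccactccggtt

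The motifs searched on both strands were the GC box GGGCGG, the CCAAT box CCAAT, the GATA motif GATAA and the TATA-like motif ATAAAA, and matches could overlap. Tfap2b had no promoter window and was not searched. Lhx1 and Tfcp2l1 each held 2 GC boxes, and Pax2, Pax8 and Gata3 each held 1. At least 1 GC box was found in 30.5% of 33469 rat promoter windows. Tfcp2l1 also held the TATA-like motif at position −32. That motif was found in 18.6% of windows and in that of Pax8, but not in those of Pax2, Lhx1 and Gata3. The GATA motif, present in 23.5% of windows, was found in the window of Pax8 and not in those of Pax2, Lhx1, Gata3 and Tfcp2l1. The CCAAT box, present in 34.0% of windows, was likewise found for Pax8 and for none of the other 4. A match is a description of the letters and not a binding site.

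None of the 6 measured genes passed an adjusted limma p under 0.05, where 0% of all genes did. At an unadjusted limma p under 0.05 the count was again 0 of 6, beside 5.49% of all genes, 1.63% higher and 3.86% lower. The groups overlapped in all 6 genes, while 11.8% of all genes had groups that did not, 3.85% higher and 7.95% lower with tricresyl phosphate. Gata3, Tfap2b and Lhx1 had positive differences, as did 40.8% of all genes, and Pax2, Pax8 and Tfcp2l1 negative ones, as did 59.2%. The median size of the difference was 0.085 in these 6 genes and 0.12 over all genes tested, and the median difference was −0.018 beside −0.038. The lowest adjusted limma p of the 6 was 0.811, for Gata3.

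The 6 genes were read by 10 probes, 2 each for Pax2, Lhx1, Gata3 and Tfcp2l1 and 1 each for Pax8 and Tfap2b. The 10 probes were well above background on every array. For a gene with 2 probes the one with the higher mean entered the comparison of all genes, and the dimmer is given beside it, with its difference and adjusted p from a fit of all 43099 probes kept.

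**Figure D1:**
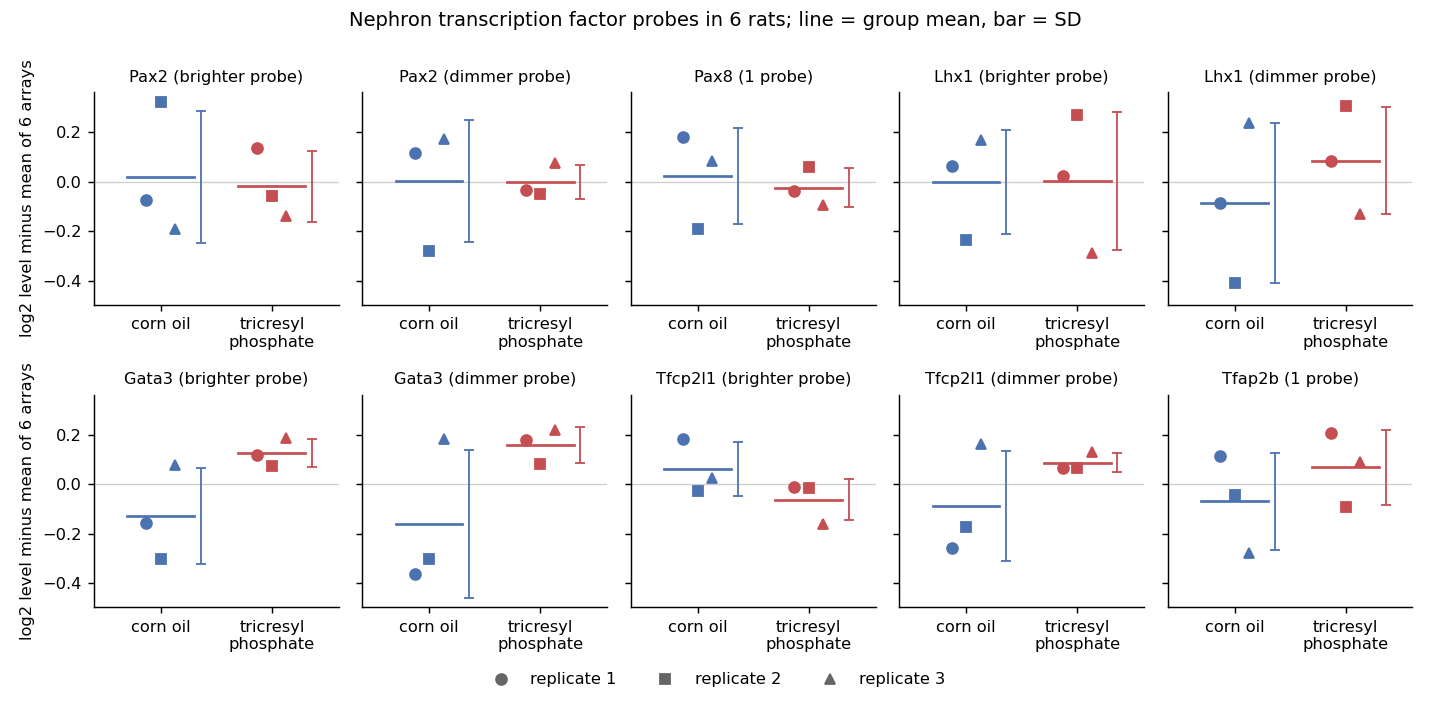
Log2 level of each of the 10 probes, minus its own mean over the 6 arrays, in corn oil (blue) and tricresyl phosphate (red) rats, with replicate 1 as a circle, 2 as a square and 3 as a triangle. Horizontal lines are group means and bars are the SD of 3 rats. The groups overlap for all 10 probes, and the corn oil rats are spread more widely for 9 of them.

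The collecting duct factor Gata3 had the largest difference among the 6 genes. Its brighter probe was at −0.17, −0.32 and 0.065 in corn oil replicates 1 to 3 and at 0.11, 0.061 and 0.17 in tricresyl phosphate replicates 1 to 3. All 3 treated rats lay above corn oil replicates 1 and 2, and corn oil replicate 3 lay among the treated rats. The group means were −0.14 ± 0.19 (SD, n = 3) and 0.11 ± 0.056 (SD, n = 3). The difference was 0.25 ± 0.12 (SE), a 1.19-fold higher mean, with a 95% interval from −0.036 to 0.55. The adjusted limma p was 0.811 and the exact two-sided permutation p over the rats 0.2, where 0.1 is the smallest that 3 against 3 allow. The dimmer Gata3 probe was at −1.91, −1.85 and −1.37 with corn oil and at −1.37, −1.47 and −1.33 with tricresyl phosphate. The treated mean was higher by 0.32 ± 0.16 (SE), adjusted limma p 0.816. Both probes therefore placed corn oil replicates 1 and 2 below the other 4 rats. Within the slide that 5 arrays shared, the difference of the brighter probe was 0.24, and without corn oil replicate 2 it was 0.17. It kept its sign in all 18 alternatives, from 0.17 to 0.36, with an adjusted limma p of at least 0.693. Several of these, such as the filters, the variance model and the replicate block, could not change this difference.

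Tfcp2l1, the other collecting duct factor, gave different answers at its 2 probes. The brighter probe was at 5.398, 5.19 and 5.24 with corn oil and at 5.20, 5.198 and 5.06 with tricresyl phosphate. Corn oil replicate 1 was the highest rat and tricresyl phosphate replicate 3 the lowest, and the rest lay close together. The difference was −0.12 ± 0.098 (SE), with a 95% interval from −0.36 to 0.12 and an adjusted limma p of 0.825. Quantile normalization left −0.029 of it, and the shared slide −0.061. The dimmer probe was at −2.03, −1.94 and −1.61 with corn oil and at −1.70, −1.70 and −1.64 with tricresyl phosphate, a difference of 0.18 ± 0.13 (SE) with an adjusted limma p of 0.816. There corn oil replicate 1 was the lowest rat rather than the highest. The mean of the 2 probes differed by 0.027 ± 0.087 (SE), so the sign for Tfcp2l1 rests on the choice of probe.

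Pax2, which acts from the first nephric duct cells to the adult collecting duct, had nearly equal group means at both probes. The brighter probe was at −0.84, −0.44 and −0.95 with corn oil and at −0.62, −0.82 and −0.90 with tricresyl phosphate. Corn oil rats held both the highest and the lowest value. The difference was −0.038 ± 0.16 (SE), with a 95% interval from −0.43 to 0.35 and an adjusted limma p of 0.967. It turned positive when corn oil replicate 2 was left out, at 0.11, and when the third treated rat was, at 0.022. The dimmer probe was at −3.24, −3.64 and −3.19 with corn oil and at −3.39, −3.41 and −3.28 with tricresyl phosphate, a difference of −0.0048 ± 0.14 (SE). The 2 probes disagreed on single rats, since corn oil replicate 2 was the highest of 6 at the brighter probe and the lowest of 6 at the dimmer.

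Pax8, the paralogue of Pax2 that stays on along most of the adult tubule, was at 2.77, 2.40 and 2.67 with corn oil and at 2.55, 2.65 and 2.49 with tricresyl phosphate. The treated rats lay inside the range of the controls. The difference was −0.048 ± 0.12 (SE), a 0.967-fold mean, with a 95% interval from −0.35 to 0.25 and an adjusted limma p of 0.943. It was 0.030 without corn oil replicate 1 and 0.018 under normexp background correction with quantile normalization.

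Lhx1 varied between rats within both groups. Its brighter probe was at 1.17, 0.87 and 1.27 with corn oil and at 1.13, 1.37 and 0.82 with tricresyl phosphate. Corn oil replicate 2 and tricresyl phosphate replicate 3 were the low rats, 1 in each group. The difference was 0.0032 ± 0.18 (SE), with a 95% interval from −0.43 to 0.44 and an adjusted limma p of 0.998. Leaving out corn oil replicate 2 gave −0.11. Leaving out a treated rat gave −0.0082 for replicate 1 and −0.13 for replicate 2. The dimmer probe was at −0.68, −1.01 and −0.36 with corn oil and at −0.51, −0.29 and −0.73 with tricresyl phosphate, a difference of 0.17 ± 0.20 (SE) with an adjusted limma p of 0.866. The same 2 rats were low in their groups at this probe, and the 4 higher rats included 2 of each group.

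Tfap2b was at 2.57, 2.42 and 2.18 with corn oil and at 2.67, 2.37 and 2.55 with tricresyl phosphate. Corn oil replicate 3 was the lowest rat and tricresyl phosphate replicate 1 the highest, and the remaining rats of both groups were interleaved. The difference was 0.14 ± 0.14 (SE), a 1.099-fold higher mean, with a 95% interval from −0.20 to 0.47 and an adjusted limma p of 0.852. It was 0.23 within the shared slide, 0.033 when corn oil replicate 3 was left out and 0.066 when treated replicate 1 was.

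**Figure D2:**
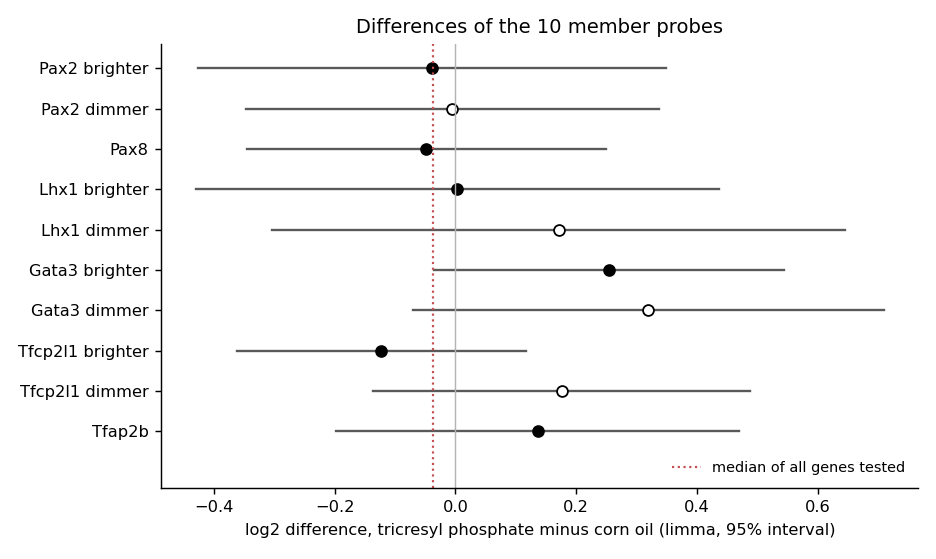
Difference of tricresyl phosphate minus corn oil (log2, points) with its 95% limma interval (lines) for the 10 probes, filled for the brighter or only probe of a gene and open for the dimmer. All 10 intervals include 0, and those of Gata3 reach from −0.036 to 0.55 and from −0.070 to 0.71. The dotted line is the median of all genes tested, −0.038.

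The intervals bound what 3 rats a group can show. The highest upper bound among the brighter probes was that of Gata3, 0.55, and the lowest lower bound was that of Lhx1, −0.43. The number of arrays limits the precision, and the p-values set each difference against the spread between these rats. In limma that spread is moderated towards that of all genes tested, and it includes the separate slide of corn oil replicate 1.

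Agreement of the 2 probes of a gene was measured as the root mean square distance between their 6 levels, each probe centred on its own mean. The distance was 0.097 for Gata3 and 0.12 for Lhx1, where the 2 probes ranked the rats much alike. It was 0.23 for Tfcp2l1 and 0.32 for Pax2, where the rat at 1 end of the brighter probe lay at the opposite end of the dimmer.

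**Figure D3:**
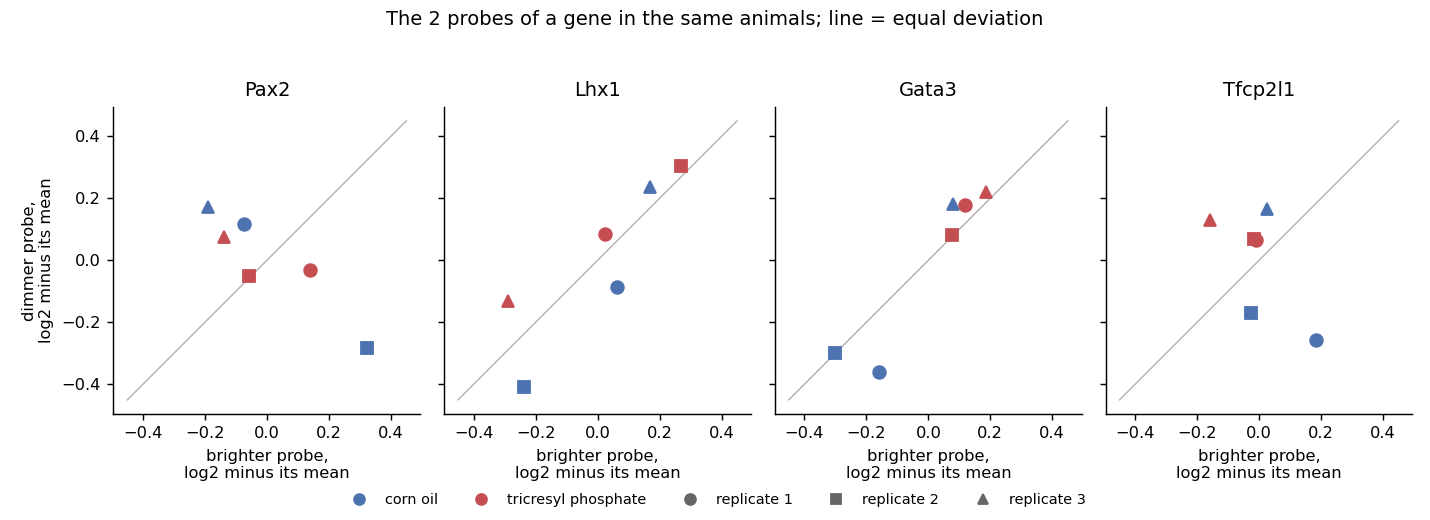
Level at the dimmer probe against level at the brighter probe of the same gene, each as log2 minus its mean over 6 arrays, with a point per rat and a line of equal deviation. Points of Lhx1 and Gata3 follow the line (distances 0.12 and 0.097), and points of Pax2 and Tfcp2l1 run across it (0.32 and 0.23).

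The spread between rats was also described for each group. The corn oil rats had the larger SD at 9 of the 10 probes, Lhx1's brighter probe being the exception, while 51.3% of all genes had the larger SD with corn oil. The median SD of the 10 probes was 0.22 with corn oil and 0.082 with tricresyl phosphate, beside 0.15 and 0.15 over all genes. Without the array on its own slide, corn oil replicates 2 and 3 still lay farther apart than the average pair of treated rats at 9 of the 10 probes, beside 45.4% of all genes. Probes of the same gene share their RNA, 3 rats give a poor estimate of an SD, and this difference in spread was looked at after the values were seen and was not tested.

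Markers of the nephron segments were read in the same arrays. The principal cells, which reabsorb water and sodium in the collecting duct, had 9 measured markers, 7 higher and 2 lower with a median difference of 0.099, and their summed level was 195.5 to 231.8 times the 75th percentile with corn oil and 212.8 to 227.7 times with tricresyl phosphate. The intercalated cells, which secrete acid or base, had 13 measured markers, 10 higher and 3 lower with a median of 0.13, and summed levels of 171.2 to 205.9 and 173.2 to 231.6. No marker passed the adjusted threshold in either list, and 40.8% of all genes had positive differences. The 3 principal cell markers with the smallest p were the water channel genes Aqp4, at 0.45 ± 0.14 (SE) with 3 further probes at 0.051, 0.21 and 0.71, and Aqp3, at 0.18 ± 0.089 (SE), and the sodium channel gene Scnn1g, at 0.14 ± 0.12 (SE). Those of the intercalated cells were Rhbg, an ammonia transporter, at 0.25 ± 0.10 (SE), the transcription factor gene Dmrt2 at 0.31 ± 0.14 (SE) and the bicarbonate transporter gene Slc4a9 at 0.30 ± 0.15 (SE), or 0.15 at a second probe. The 2 lower principal cell markers, named after their values were seen, were Aqp2 at −0.043 ± 0.18 (SE) and Stc1 at −0.037 ± 0.29 (SE). The 3 lower intercalated cell markers, also named afterwards, were Foxi1 at −0.18 ± 0.23 (SE), Atp6v1g3 at −0.036 ± 0.15 (SE) and Slc26a4 at −0.0093 ± 0.17 (SE). The medians of both lists moved with single rats. The principal cell median was 0.17 without corn oil replicate 3 or tricresyl phosphate replicate 2, and 0.043 without tricresyl phosphate replicate 3. The intercalated cell median was 0.054 when control replicate 2 was left out and 0.032 when treated replicate 1 was, and stood at 0.20 when treated replicate 3 was. The part of these cells in the Gata3 difference was not tested.

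The collecting duct factors were then expressed relative to the mean of the 9 principal cell markers within each array, a measure added after the values were seen. Gata3 at its brighter probe, centred on its mean, was at −0.13, −0.13 and 0.052 with corn oil and at 0.060, 0.053 and 0.095 with tricresyl phosphate, a difference of 0.14. All treated rats were above all controls, by the narrow margin between corn oil replicate 3 and tricresyl phosphate replicate 2, where 0.876% of all genes were separated in that direction on this measure. The dimmer Gata3 probe differed by 0.20 and overlapped. Tfcp2l1 at its brighter probe was at 0.22, 0.14 and −0.0012 with corn oil and at −0.068, −0.039 and −0.25 with tricresyl phosphate. The groups were separated downwards, as were 19.9% of all genes, and the dimmer probe differed by 0.060 and overlapped. Against the 13 intercalated cell markers, Gata3 overlapped at both probes, with differences of 0.14 and 0.20, where 0.519% of all genes were separated upwards. Tfcp2l1 differed by −0.24 at the brighter probe, separated downwards as were 13.6% of all genes, and by 0.058 with overlap at the dimmer.

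**Figure D4:**
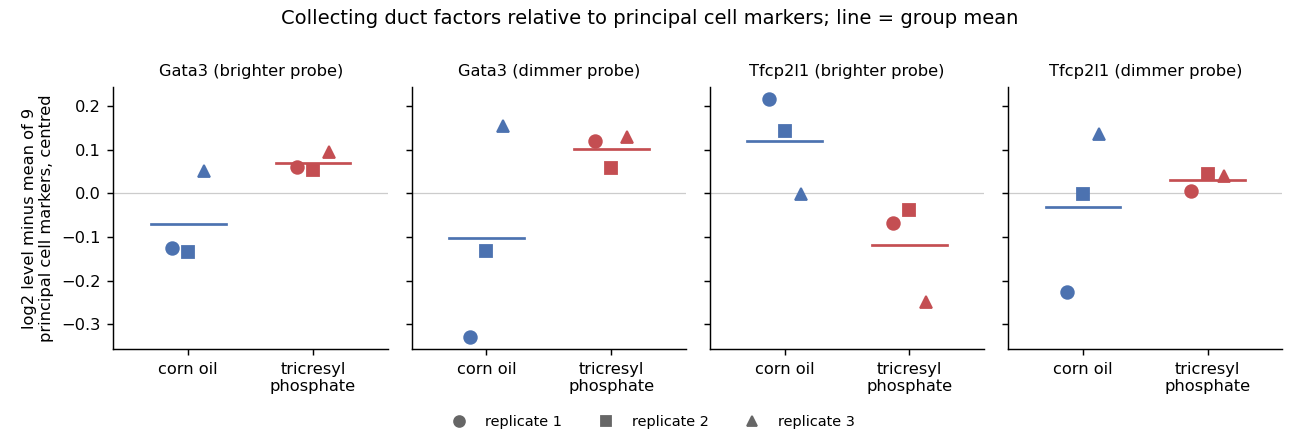
Log2 level of Gata3 and Tfcp2l1 at each probe minus the mean of 9 principal cell markers of the same array, centred on the mean of 6 rats, for corn oil (blue) and tricresyl phosphate (red), with group means as lines. At the brighter probes Gata3 lies higher, by a narrow margin, and Tfcp2l1 lower in the treated rats, with differences of 0.14 and −0.24. On this measure, added after the values were seen, 0.876% of all genes were separated upwards and 19.9% downwards. At the dimmer probes the groups overlap.

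Gata3 also marks T helper cells and sympathetic neurons, so markers of these cells were read as well. Of 10 measured T cell markers, 3 were higher and 7 lower with a median of −0.24, or −0.091 without corn oil replicate 1, and the summed level was 2.493 to 3.034 with corn oil and 2.15 to 2.575 with tricresyl phosphate. The interleukin 7 receptor gene Il7r differed by −0.50 ± 0.17 (SE), with 3 further probes at −0.36 to −0.13 that were above background on only some arrays. Cd3d and Cd3g, chains of the T cell receptor complex, differed by −0.27 ± 0.099 (SE) and −0.50 ± 0.21 (SE). The 3 markers on the positive side, named after their values were seen, were Cd3e, another chain of that complex, at 0.10 ± 0.14 (SE), the T helper cell marker Cd4 at 0.12 ± 0.19 (SE) and the kinase gene Lck at 0.14 ± 0.13 (SE). None of these passed the adjusted threshold, and the part of T cells in the Gata3 values was not tested. Of the sympathetic neuron and neural crest markers 5 were measured, 3 higher and 2 lower with a median of 0.013, and Dbh, Chrna3, Stmn2 and Elavl4 stayed below that level of detection on all 6 arrays.

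Tfap2b stood beside 8 measured markers of the distal convoluted and connecting tubule, 6 higher and 2 lower with a median of 0.036, among them S100g, a calcium-binding protein gene, at −0.47 ± 0.23 (SE), the calcium channel gene Trpv5 at 0.34 ± 0.20 (SE) and the kinase gene Wnk4 at 0.10 ± 0.13 (SE). Second probes of Trpv5 and Wnk4 gave 0.12 and 0.096. Relative to the mean of the 8 markers, Tfap2b differed by 0.13 and the groups overlapped. Of 15 measured proximal tubule markers 4 were higher and 11 lower with a median of −0.086, where 59.2% of all genes were lower. Of 11 thick ascending limb markers 6 were higher and 5 lower with a median of 0.0003. No marker passed the adjusted threshold in either list. Pax8 relative to the proximal tubule markers differed by 0.054. Lhx1 relative to the thick ascending limb markers differed by 0.026 at its brighter and 0.19 at its dimmer probe, each of these with overlap. Pax2 relative to the principal cell markers differed by −0.15 at the brighter probe and −0.12 at the dimmer, again with overlap.

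The profile of each gene over the 6 rats was taken at its brighter or only probe. It was compared with those of 66 nephron segment markers by the same root mean square distance, a description added after the values were seen. The dimmer probes, which ran across the brighter for Pax2 and Tfcp2l1, were not compared. The marker nearest to Gata3 was Rhcg, an ammonia transporter of the collecting duct and connecting tubule, at a distance of 0.036 beside a median of 0.21 for the 66 markers. Rhcg was at 2.83, 2.76 and 3.11 with corn oil and at 3.09, 3.08 and 3.25 with tricresyl phosphate, so its low rats were also corn oil replicates 1 and 2. The marker nearest to Lhx1 was Aqp2, the vasopressin-regulated water channel, at 0.058 beside a median of 0.23. Aqp2 was at 6.76, 6.38 and 6.82 with corn oil and at 6.72, 6.79 and 6.31 with tricresyl phosphate, low in the same 2 rats as Lhx1. For Pax8 the nearest was Kl, the klotho gene, at 0.050, for Tfcp2l1 Slc13a3, a dicarboxylate transporter of the proximal tubule, at 0.040, for Tfap2b the organic anion transporter gene Slc22a8 at 0.10 and for Pax2 the amino acid transporter gene Slc7a9 at 0.11.

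The 2 rats with low Lhx1 also had the highest mean level of 12 hepatocyte markers, a list added after the values were seen. That mean was 0.035 in the control rat (replicate 2), −0.33 in the treated rat (replicate 3) and between −2.49 and −1.35 in the other 4 rats. The part of this difference between rats in the Lhx1 values was not tested. A list of 12 tubular injury markers, 11 of them measured, was also added after the values were seen. Its mean was 0.33, 0.63 and 0.76 in corn oil replicates 1 to 3. In tricresyl phosphate replicates 1 to 3 it was 0.48, 0.64 and 0.48, so it did not set the 2 rats with low Lhx1 apart.

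Among all 12411 other genes with a symbol and no missing value, the profiles nearest to Gata3 were those of Ephb4, an ephrin receptor, at a distance of 0.029 and Slc10a7 at 0.036. Those nearest to Tfcp2l1 were Ormdl1, a regulator of sphingolipid synthesis, at 0.012 and Sh3bp5 at 0.016. Pax8 was nearest to Fgfr1op2 at 0.034 and Homer3 at 0.039, and Lhx1 to Kcnd1, a potassium channel gene, at 0.043 and Lmntd2 at 0.049. Tfap2b was nearest to Tmem79 at 0.042 and Metap1d at 0.048, and Pax2 to Dnai7 at 0.049 and Slc36a4 at 0.057. These profiles, too, are of the brighter or only probe, and the dimmer probes were not compared. With 6 arrays and this many genes, near profiles are found for any gene.

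Other transcription factors of kidney development were followed from a list of 40 genes, of which 30 were measured. Of these 13 were higher and 17 lower (59.2% of all genes were lower), with a median of −0.066 beside −0.038 over all genes, and 0 passed the adjusted limma threshold. At an unadjusted limma p under 0.05 there was 1 of 30, beside 5.49% of all genes. It was Sox11, a factor of embryonic progenitors. Sox11 was at −4.92, −5.23 and −5.01 with corn oil and at −5.41, −5.89 and −5.71 with tricresyl phosphate, and it was well above background on all 3 control arrays and 1 treated array. The fitted difference of −0.62 ± 0.15 (SE), adjusted limma p 0.811, thus rests on 2 treated levels not well above background, and its size is not measured on both sides. For Hes1, a target of Notch signalling, the difference was 0.32 ± 0.14 (SE), and 0.40 at a second probe. For Six2, the factor of nephron progenitors, it was 0.29 ± 0.17 (SE), and −0.37 at a second probe that was well above background on 3 control and 2 treated arrays.

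Family relatives of the 8 genes numbered 35, and 21 were measured, 13 higher and 8 lower with a median of 0.038. None passed the adjusted limma threshold. An unadjusted limma p under 0.05 was found for 3 of 21, 2 higher and 1 lower, beside 1.63% and 3.86% of all genes, and 2 of these 3 were not well above background on all arrays. Lhx8, a relative of Lhx1 known from the forebrain and oocyte, was at −4.91, −4.76 and −4.29 with corn oil and at −5.62, −6.16 and −5.52 with tricresyl phosphate. It was well above background on 3 control arrays and 1 treated array. The fitted difference of −1.11 ± 0.23 (SE), adjusted limma p 0.811, is therefore taken against 2 treated levels not well above background, and its size is not measured. Gata2, the relative of Gata3 that serves blood vessels and the collecting duct, was at −2.40, −2.40 and −2.17 with corn oil and at −1.88, −2.02 and −2.04 with tricresyl phosphate. All treated rats were above all controls, as for 3.85% of all genes, by a mean of 0.34 ± 0.11 (SE), adjusted limma p 0.811. Pax9, read above background on 2 control and 3 treated arrays, differed by 0.35 ± 0.13 (SE).

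Signals that act with these factors in nephron and ureteric bud growth were 34 genes, 26 of them measured, 7 higher and 19 lower with a median of −0.071, where 59.2% of all genes were lower. None passed the adjusted limma threshold, and 3 of 26 had an unadjusted limma p under 0.05, beside 5.49% of all genes. Gdnf, the growth factor that draws out the ureteric bud and lies downstream of Pax2, was at 4.14, 3.98 and 4.04 with corn oil and at 3.84, 3.54 and 3.28 with tricresyl phosphate. The treated rats were all lower, as for 7.95% of all genes, by a mean of −0.50 ± 0.16 (SE), adjusted limma p 0.811. A second Gdnf probe was well above background on 1 control and 3 treated arrays. Its fitted difference of 1.11 ± 0.50 (SE) includes 2 control levels not well above background, and its size is not measured. Wnt9b, the ureteric bud signal that starts nephron formation, differed by 0.28 ± 0.11 (SE), and Lif, which promotes epithelial conversion, by 0.27 ± 0.11 (SE).

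Genes reported downstream of Pax2, Pax8, Gata3, Tfcp2l1 or Tfap2b formed a list of 13, and 12 were measured, 6 higher and 6 lower with a median of 0.0019. None passed the adjusted limma threshold, and 1 of 12, Gdnf, had an unadjusted limma p under 0.05, beside 5.49% of all genes. The other genes with the smallest p were Aqp3, given above, and Atp6v1b1, the proton pump subunit of intercalated cells, at 0.20 ± 0.11 (SE), and 0.34 at a second probe.

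**Figure D5:**
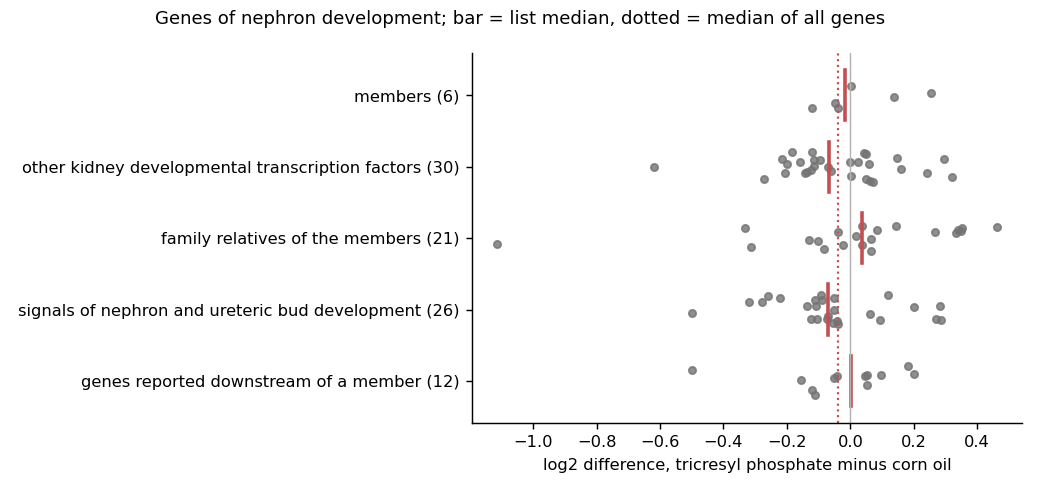
Difference of tricresyl phosphate minus corn oil (log2) for the 6 measured transcription factor genes and for 4 gene lists of nephron development, a point per gene, with the list median as a red bar and the median of all genes, −0.038, as a dotted line. The medians are −0.018, −0.066, 0.038, −0.071 and 0.0019 from top to bottom, and no gene shown passed the adjusted threshold. Sox11 and Lhx8, the lowest points of their rows, were well above background on only 1 treated array.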

How the data were processed

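RNA from the renal cortex of 6 rats was measured on 1-colour arrays, which the authors quantified with Feature Extraction from Agilent. The file headers give version 10.7.1.1 and build rn4 for the design, and the submitters' processing notes give 10.7. The deposited intensity values are linear: a processed signal, background-subtracted within each array, and the median brightness of spot and background. The authors' value table, also intensity, equals the processed signal divided by a constant per array (coefficient of variation 0.00116% to 0.00147% above a signal of 1000), with column medians of 0.1094 to 0.1151. Scanner flags, deposited as 0 or 1, mark other properties of a spot.

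Probes were named by accession through the RefSeq table of GRCr8 (28206 with 1 symbol, 0 with several, 33331 with none), and rn4 coordinates were not used. Controls (1439 spots) were left out and 77 outlier spots set missing, none in a probe of the 6 genes, and 0 were saturated. The log2 processed signal minus the array's 75th percentile was kept for 43099 probes well above background on at least 3 arrays, with the brightest probe per gene. Groups were compared with limma 3.58.1 in R 4.3.3 (lmFit, eBayes, two-sided, Benjamini-Hochberg over all genes), tested on simulated data. Named are the 8 genes, the 3 smallest p of each development list and of the collecting duct, distal tubule, T cell and endothelial markers (other lists are given by counts), and the 2 nearest profiles. The genes and lists were chosen with earlier results of these data known. The labels do not say that the replicate numbers pair the rats. Correlations of same-numbered deviations were 0.086, −0.051 and −0.044, which shows no pairing but cannot exclude it. Alternatives changed normalization, background correction, source of values, filter, probe choice, outliers, variance model, slide and replicate block, or left out each rat.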

Additional observations from a re-analysis of the deposited data

How the results depend on the processing

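Over 18 alternatives, 1 of them chosen after the data were seen (the dimmer probe of genes with 2), 0 of the 6 transcription factor genes passed the adjusted limma threshold in any. Gata3 reached its lowest adjusted limma p, 0.693, without corn oil replicate 3, at a difference of 0.36. The signs of Gata3 (0.17 to 0.36) and Tfap2b (0.033 to 0.23) held in all 18. Filters, outlier flags, variance model and replicate block could not change either difference, nor could probe choice change that of Tfap2b. The slide block is the same fit as leaving out corn oil replicate 1. Pax8 turned to 0.018 under normexp with quantile normalization and to 0.030 with slide as a block, a fit in which corn oil replicate 1 carries no weight. Tfcp2l1 turned to 0.027 with the mean of its probes and to 0.18 at the dimmer probe. Leaving out each rat, differences ranged from −0.14 to 0.11 for Pax2, from −0.16 to 0.030 for Pax8 and from −0.13 to 0.15 for Lhx1. The cause was not tested.

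Counts of all genes past the threshold were 0, except 2 under normexp and under trend with robust estimation and 0 to 1 on leaving out each rat. List medians moved by more than the spread between rats in 16 comparisons and by less in 239. They were proximal tubule markers under quantile (0.016), cyclic loess (0.067) and normexp (0.012), signals under cyclic loess (−0.037), normexp (−0.023) and probe means (−0.016), downstream genes under cyclic loess (0.066), other transcription factors with probe means (−0.0023), and medulla and T cell markers with the slide as a block (−0.064 and −0.091). The proximal tubule median, −0.086 before these changes, thus turned positive under all 3 of its alternatives named here. Leaving out each rat gave −0.082 to −0.012 for signals, −0.044 to 0.094 for downstream genes, 0.043 to 0.17 for principal cell, −0.064 to 0.010 for medulla and −0.31 to −0.091 for T cell markers. It gave 0.032 to 0.20 for intercalated cell, −0.090 to 0.17 for distal tubule, −0.024 to 0.13 for endothelial, −0.12 to 0.024 for podocyte, −0.27 to −0.057 for fibroblast and −0.055 to 0.077 for neural crest markers, and 0.019 to 0.087 for family relatives. With the replicate block, which the check of deviations did not bear out as a pairing, Gata3 differed by 0.25 with an adjusted limma p of 0.753, and 0 genes passed. These 10 probes were well above background on every array, with the lowest processed signals, 92 to 124.5, at the dimmer Pax2 probe. The part of low signal in the differences between probes was not tested.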

Other observations

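Markers that do not belong to the tubule were read beside these genes. Of 9 measured endothelial markers 5 were higher and 4 lower with a median of 0.028, and the 3 with the smallest p were Flt1, Tie1 and Plvap. The vascular receptor gene Flt1 differed by 0.56 ± 0.15 (SE), and by 0.22 and 0.25 at 2 further probes. Tie1, another vascular receptor gene, differed by 0.25 ± 0.085 (SE), and by 0.27 at a second probe. Plvap, a gene of fenestrated endothelium, differed by −0.17 ± 0.089 (SE), and by −0.057 at a second probe. All treated rats were above all controls for Flt1 and Tie1, as for 3.85% of all genes, and below them for Plvap, as for 7.95%. None passed the adjusted limma threshold (0.811 each). Of 6 fibroblast and stroma markers 1 was higher and 5 lower with a median of −0.16, and of 10 podocyte markers 3 were higher and 7 lower with a median of −0.050. Renal medulla markers had 5 higher and 4 lower of 9, a median of 0.012 and summed levels of 13.96 to 17.82 with corn oil and 14.54 to 16.56 with tricresyl phosphate.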
